A study of Mus musculus with 12 samples.

Results

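Melanotransferrin (Meltf) and 7 genes of cellular iron uptake, export, storage and sensing were followed in MIN6 cells, an insulin-producing mouse insulinoma line. The members are the rows of the count files whose gene name is Meltf, Tfrc, Slc11a2, Slc40a1, Fth1, Ftl1, Aco1 or Ireb2, which gave 8 of 49315 genes. Meltf was chosen by its measured values in these libraries, low in starved cells and higher after re-addition, so its values are a description with no test. The other 7 were named for their role in iron metabolism with those results known. All 8 passed the filter on low counts.

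RNA sequencing of wild-type MIN6 cells gave 12 libraries, 3 in each of 4 groups. In the Rap group amino acids were given back together with an agent labelled Rap for 3 h, and in the re-added group amino acids were given back alone for 3 h. The starved group had no amino acids for 16 h, and for the control group the labels name no treatment. The labels do not spell out Rap or its dose, nor how long the Rap and re-added cells had been starved. All groups share 1 line, for which a growth medium with serum and glutamine is given. As glutamine is an amino acid, that medium is taken as the routine one, not that of the 16 h without amino acids. Whether the replicates were separate cultures is not stated, and the p-values reflect spread between libraries that may be technical. The series title names PDX1 and mTORC1, the kinase complex that amino acids activate and that rapamycin inhibits.

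Cells take up iron chiefly as transferrin bound to the transferrin receptor, which is carried into endosomes, where the iron is reduced and passes to the cytosol through the divalent metal transporter. Iron that is not used is stored inside shells of ferritin heavy and light chains or leaves the cell through ferroportin. Iron-regulatory proteins bind hairpins called iron-responsive elements in several of these messengers when cytosolic iron is low. In a 5′ untranslated region such binding blocks translation, and in the 3′ untranslated region of the receptor messenger it slows decay. β-cells are known to depend on iron for mitochondrial function and to be harmed by an excess of it.

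The hairpins are shown because they are the shared control elements of these messengers that bear on how transcript levels of the members are read. They were searched for in the GENCODE M21 transcripts (GRCm38) as a C, 5 bases, the loop CAGTGN and 5 bases that pair with the first 5, G-U pairs allowed. Matches lie in untranslated regions of 4 members, 7 sites in all, each given below 5′ to 3′ as 30 bases with the 6-base loop in capitals and T for U.
Fth1 5′ (chr19:9982732-9982761, plus strand): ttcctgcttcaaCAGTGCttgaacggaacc
Ftl1 5′ (chr7:45459778-45459807, minus strand): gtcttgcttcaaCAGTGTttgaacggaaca
Slc40a1 5′ (chr1:45925464-45925493, minus strand): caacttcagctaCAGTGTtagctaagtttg
Tfrc 3′ site 1 (chr16:32631219-32631248, plus strand): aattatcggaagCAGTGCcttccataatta
Tfrc 3′ site 2 (chr16:32631598-32631627, plus strand): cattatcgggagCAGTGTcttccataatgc
Tfrc 3′ site 3 (chr16:32631663-32631692, plus strand): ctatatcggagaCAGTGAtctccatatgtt
Tfrc 3′ site 4 (chr16:32631710-32631739, plus strand): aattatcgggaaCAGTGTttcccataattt
The 2 ferritin messengers share the bases around the loop. In the 4 sites of Tfrc the C that opens the match lies between 888 and 1379 bases past the stop codon. Of 21901 protein-coding genes, 0.142% hold such a match in a 5′ and 0.589% in a 3′ untranslated region. The match was present in 4 of 5 coding transcripts of Fth1, 1 of 2 of Ftl1, 1 of 4 of Slc40a1 and 1 of 3 of Tfrc, and the counts pool all transcripts of a gene. Transcripts of Meltf, Slc11a2, Aco1 and Ireb2 held no match to these letters, which says nothing about other forms of the element.

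Library totals ran from 18555958 to 25631056 reads. All 10 β-cell markers, Ins1, Ins2 and Pdx1 among them, were detected in every library and summed to 35254 to 38522 CPM in Rap, 30387 to 35616 CPM in re-added, 32458 to 34769 CPM in starved and 38156 to 52450 CPM in control libraries. Ins2 and Iapp made up most of these sums (26641 and 12397 CPM on average in control), and single markers did not all move alike. Pdx1 averaged 414 CPM in starved against 631 CPM in control cells and Slc2a2 1.24 against 9.45 CPM, whereas Neurod1 averaged 449 against 213 CPM. Isl1 averaged 380 CPM with Rap against 265 CPM in control, and Ucn3 was at 1.48 CPM or less in every library. Markers of fibroblasts, leukocytes and endothelium (34 gene rows) were also present, and they differed within groups. Their sums were 114, 114 and 109.95 CPM with Rap, 543, 113 and 107 CPM after re-addition, 1254, 116 and 612 CPM under starvation, and 1295, 1548 and 1480.0 CPM in control. Markers of lung epithelium (5 genes) and red cells (7 genes), tissues to which a β-cell line does not belong, moved the same way. The lung sums were 44.1, 41.2 and 36.2 CPM with Rap, 648, 73.1 and 48.8 CPM after re-addition, 1378, 74.7 and 620.1 CPM under starvation, and 1403, 1672 and 1638 CPM in control. The red cell sums were 5.03 to 6.60 CPM with Rap and 154 to 190.1 CPM in control. Such RNA was thus higher in control than in most other libraries, starved replicate 1 coming closest, and its part in each result was not tested. In bulk RNA fewer cells of a type and less RNA per cell cannot be told apart. Comparisons were therefore also run on libraries of like marker level, which leave 1 starved library where starved cells are compared, assumed to vary like the other groups. That library is starved replicate 1 against control, but starved replicate 2 against re-added or Rap cells. Values of these comparisons thus rest on different starved libraries. In Rap against re-added only re-added replicate 1 is left out, so that fit is the same as the one without this replicate. A fit with the marker sum as a covariate was also run. Re-added and control libraries share no level of the sum, so their adjusted difference rests on the fitted slope. The ranges of the sum do not overlap between starved and control or between Rap and starved libraries either, though 1 starved library came close in each case.

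**Figure D1:**
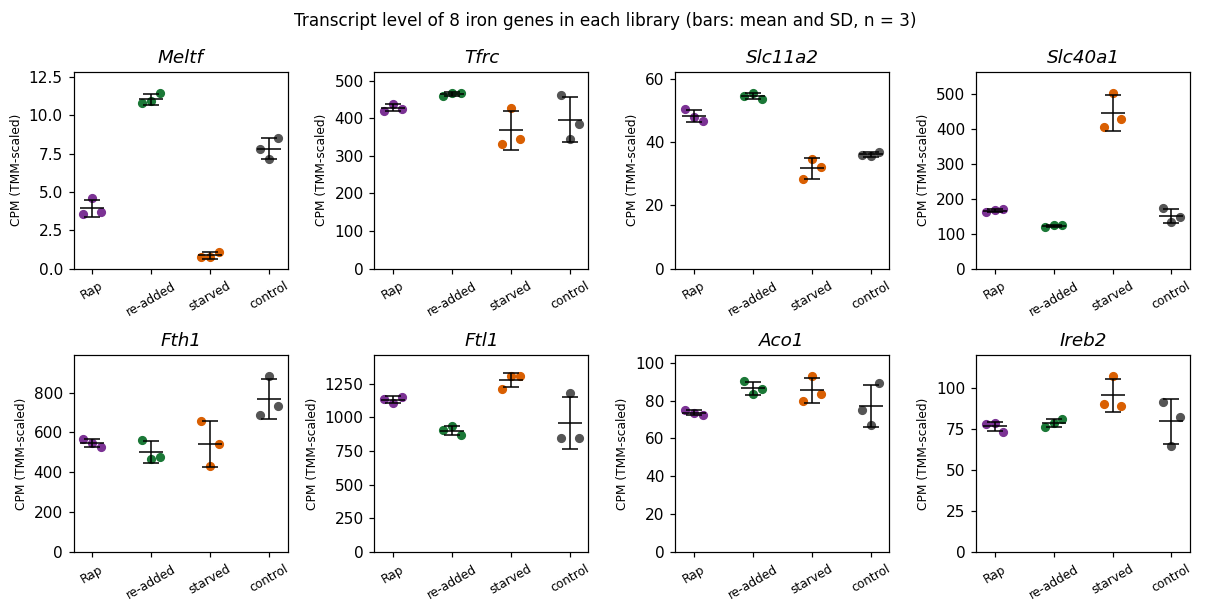
Level of each gene in each library, as CPM scaled by TMM on a linear axis from 0. Points are libraries and bars the mean and SD of 3. Meltf and Slc40a1 separate the starved group from every other group in opposite directions, while Aco1 lies between 66.9 and 92.9 CPM throughout.

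Levels are compared between genes as TPM, which divides by exon length. The ferritin messengers were by far the most abundant, and Meltf was the least. In control cells Fth1 averaged 2348 ± 153 TPM and Ftl1 1889 ± 229 TPM (SD, n = 3), followed by Tfrc at 171 ± 34.7 TPM. Aco1 (45.9 ± 9.71 TPM) and Slc40a1 (45.0 ± 8.4 TPM) did not differ beyond their spread. Ireb2 (22.5 ± 5.18 TPM), Slc11a2 (15.2 ± 1.36 TPM) and Meltf (5.06 ± 0.802 TPM) came last.

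Meltf is described first, with the uptake genes. It encodes a membrane-anchored protein of the transferrin family that binds iron, and its part in iron uptake is not settled. Meltf (chromosome 16, 31878810 to 31899020, plus strand, GRCm38.p6) stood at 3.58, 4.58 and 3.67 CPM with Rap, at 10.8, 10.9 and 11.5 CPM after re-addition, at 0.737, 0.749 and 1.11 CPM under starvation, and at 7.79, 7.14 and 8.53 CPM in control. No 2 groups overlapped, the order from high to low being re-added, control, Rap and starved. The starved values rest on 19, 14 and 26 reads. The log2 differences were -3.16 (SE 0.20) for starved against control, 3.66 (SE 0.20) for re-added against starved, -1.49 (SE 0.18) for Rap against re-added, 2.18 (SE 0.19) for Rap against starved and 0.50 (SE 0.17) for re-added against control. With libraries of like marker level the first 3 were -3.38, 3.95 and -1.53. On the log2(TPM + 1) scale, which shrinks differences at such low levels, they were -1.91, 2.43 and -1.29, and Rap against starved was 1.14.

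The relatives of Meltf did not show this order. Transferrin itself (Trf) was measured at 1.99, 1.60 and 1.31 TPM in Rap, 4.07, 1.44 and 1.89 TPM in re-added, 5.90, 2.05 and 3.93 TPM in starved and 5.45, 6.27 and 6.16 TPM in control libraries. Lactotransferrin (Ltf), an iron-binding protein of secretions and neutrophils, had 0.0853, 0 and 0.035 TPM in Rap, 2.86, 0.232 and 0.0357 TPM in re-added, 4.44, 0.0840 and 1.56 TPM in starved and 4.18, 4.92 and 5.41 TPM in control libraries. Within the starved group and for re-added replicate 1 both followed the sums of the fibroblast, leukocyte and endothelial markers, and in starved replicate 2, the starved library with the lowest sum, Ltf rested on 2 reads.

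Tfrc, the transferrin receptor, varied little between groups. It lies on the same chromosome as Meltf (32608920 to 32632794, plus strand), 709900 bases further on. It had 420.1, 439 and 425 CPM with Rap, 459, 467 and 466 CPM after re-addition, 332, 428 and 345 CPM under starvation, and 462, 344 and 383 CPM in control. The control libraries alone spanned most of that range. Tfrc rose in re-added against starved cells by 0.33 on the log2 scale (SE 0.11, edgeR adjusted p = 0.0347). That call was lost in 13 of 24 alternatives, among them without re-added replicate 2 or 3, starved replicate 1 or 3 or any Rap replicate, with the replicate block and in libraries of like marker level (0.18, 1 starved library). Starved against control gave -0.11 (SE 0.11, adjusted p = 0.453) and Rap against re-added -0.12 (SE 0.11, adjusted p = 0.569). Other comparisons of Tfrc passed only in some alternatives, among them Rap against starved without starved replicate 2 (0.29) and re-added against control without control replicate 1 (0.35).

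The 60 bases before the gene start of Tfrc given with the deposited counts hold the letters ACGTG, the core of the hypoxia-response element, which is described in this promoter. Relative to RefSeq starts of Tfrc the letters lie at bases -2 to 2, spanning the start, or at bases -228 to -224. They are shown in capitals (chr16:32608860-32608919, plus strand, RefSeq, GRCm38.p6).
Tfrc upstream: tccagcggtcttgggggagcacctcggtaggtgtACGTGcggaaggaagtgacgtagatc
The match on either strand occurs in 19.6% of 32851 promoters of 300 bases in that table, and it is a description, not a site shown to act here. The table held promoters of 6 members. The letters CACGTG (E-box, which contains ACGTG), TGATGNAA (ATF4 element) and TGACNNNGC (antioxidant-response element) had no match in them, TCACNCCAC (sterol-response element) had 1 match, in Ftl1, and the promoter of Meltf held none of the 5.

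Slc11a2, the divalent metal transporter that releases iron from endosomes, rose on re-addition. It stood at 50.4, 48.05 and 46.6 CPM with Rap and 54.6, 55.6 and 53.6 CPM after re-addition, against 28.3, 34.8 and 32.3 CPM under starvation and 35.9, 35.6 and 36.9 CPM in control. The Rap and re-added libraries all lay above all starved and control libraries. Re-added against starved gave 0.78 on the log2 scale (SE 0.08, edgeR adjusted p = 1.5e-05), re-added against control 0.60 (SE 0.08, adjusted p = 0.000169) and Rap against starved 0.61 (SE 0.08, adjusted p = 0.000134), and these 3 calls held in every alternative run. Starved against control was -0.19 (SE 0.08, adjusted p = 0.0791) and passed in 8 of 24 alternatives. Among them were fits without starved replicate 2 or 3 (-0.25 each) or re-added replicate 1 (-0.22). It also passed with DESeq2 (-0.25) and with other scalings, such as upper-quartile factors (-0.33) and raw library totals (-0.18). In libraries of like marker level, with 1 starved library, it was -0.34. Rap against re-added was -0.18 (SE 0.08, adjusted p = 0.207) and passed in 3. Isoforms of Slc11a2 with and without a hairpin are known, and the counts do not separate them.

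Slc40a1, which encodes ferroportin, the only known exporter of iron from cells, was highest in starved cells and had the largest log2 fold change of the 7 tested members in starved against control and in re-added against starved. Slc40a1 (chromosome 1, 45908068 to 45926523, minus strand) stood at 161, 167 and 169 CPM with Rap, at 120.0, 124 and 124 CPM after re-addition, at 405, 503 and 429 CPM under starvation, and at 172, 133 and 149 CPM in control. The starved group lay far above the others, the re-added group lay below all others, and the Rap and control ranges overlapped. It rose 2.94-fold in starved against control cells (log2 fold change 1.56, SE 0.10, edgeR adjusted p = 9.0e-07). It fell by 1.86 on the log2 scale in re-added against starved cells (SE 0.10, adjusted p = 1.7e-07) and by 1.43 in Rap against starved cells (SE 0.10, adjusted p = 1.8e-06). Each of these 3 calls held in every alternative run.

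Rap against re-added cells showed a smaller rise of Slc40a1, 0.43 on the log2 scale (SE 0.10, edgeR adjusted p = 0.0202). It did not pass when any 1 of the 3 re-added or 3 Rap replicates was left out (0.40 to 0.45) or by limma on TPM (0.33 with a pseudocount of 0.1). Here the fit of like marker level is the same as that without re-added replicate 1 (0.40). Re-added against control cells gave a fall of 0.30 (SE 0.10, adjusted p = 0.0264), which did not pass without control replicate 1 (-0.20) or without re-added replicate 2 or 3 (-0.31 each), and was -0.51 with the marker covariate. That last value rests on the fitted slope, as the marker sums of these groups do not overlap. Macrophages are known to express ferroportin strongly. The 16 leukocyte and macrophage gene rows summed to 776, 65.5 and 395 CPM under starvation, where Slc40a1 stood at 405, 503 and 429 CPM, and the starved library with the lowest marker sum had the highest Slc40a1. Of the 16 rows 0 to 3 were at 0 in a library. C1qa was at 37.0 CPM or more in every library, but other rows of this list did not share that floor. With Rap the 16 rows summed to 61.3 to 63.7 CPM, and C1qa, at 42.3 CPM on average, made up most of this. In the same libraries Lyz2 averaged 9.18 CPM and Cd68 4.53 CPM. C1qb averaged 0.340 CPM, C1qc 0.249 CPM, Tyrobp 0.593 CPM and Adgre1 0.267 CPM with Rap. Of the markers of iron-recycling macrophages, Cd163 was detected in every library and averaged 0.221 CPM in Rap, 0.223 CPM in re-added, 0.623 CPM in starved and 0.731 CPM in control cells. Spic averaged 0.018, 0, 0.0846 and 0.276 CPM in the same groups, and Vsig4 was at 0 in all Rap, re-added and starved libraries. The part of macrophage RNA in the level of Slc40a1 was not tested.

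**Figure D2:**
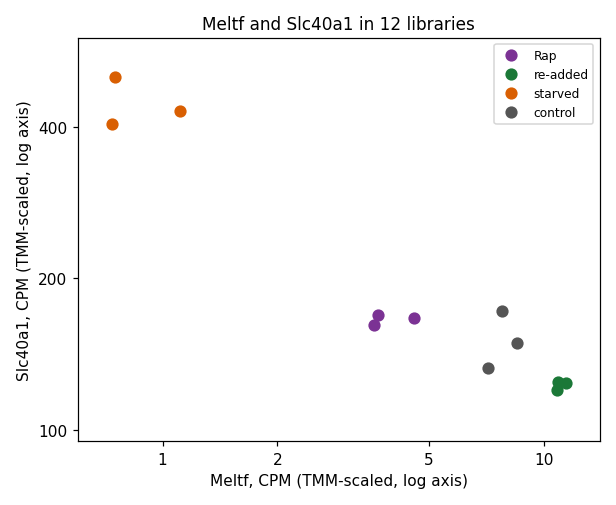
CPM of Slc40a1 (vertical) against CPM of Meltf (horizontal) in 12 libraries, both on log axes, coloured by group. Starved libraries sit at the top left, with Meltf at 1.11 CPM or less and Slc40a1 at 405 CPM or more, and re-added libraries at the bottom right.

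Meltf and Slc40a1 thus took opposite ends in the same groups. The re-added libraries had the highest Meltf and the lowest Slc40a1, and the starved libraries the lowest Meltf and the highest Slc40a1. Rap libraries lay between re-added and starved libraries for both genes. The comparisons share libraries, and their values are set side by side only.

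The ferritin subunits parted. Ftl1, the light chain that promotes mineral formation inside the shell, was higher in starved cells. Ftl1 (chromosome 7, 45457944 to 45459884, minus strand) had 1137, 1105 and 1155 CPM with Rap, 905, 934 and 866 CPM after re-addition, 1215, 1307 and 1305 CPM under starvation, and 849, 1185 and 848 CPM in control. The starved libraries lay above all others, although control replicate 2 came close. Ftl1 rose in starved against control cells by 0.41 on the log2 scale (SE 0.11, edgeR adjusted p = 0.0123) and fell by 0.50 in re-added against starved cells (SE 0.11, adjusted p = 0.00413). The first call was lost in 5 alternatives, among them without control replicate 1 (0.33), in libraries of like marker level (0.36) and with upper-quartile factors (0.26), and the second in libraries of like marker level (-0.48). The difference with Rap was 0.33 against re-added cells (SE 0.11, adjusted p = 0.1002), which passed in 3 of 24 alternatives, among them without control replicate 2 (0.33).

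Fth1, the heavy chain with the ferroxidase site that oxidises entering iron, was lower in starved than in control cells. Fth1 (chromosome 19, 9982703 to 9985092, plus strand) had 565, 546 and 529 CPM with Rap, 564, 464 and 477 CPM after re-addition, 658, 430 and 540 CPM under starvation, and 689, 882 and 735 CPM in control. Its order within the starved group was that of the other-cell marker sums, 1254, 116 and 612 CPM, and re-added replicate 1, the highest re-added library for Fth1, had the highest sum of its group. Fth1 fell by 0.50 on the log2 scale in starved against control cells (SE 0.14, edgeR adjusted p = 0.0146) and by 0.62 in re-added against control cells (SE 0.14, adjusted p = 0.00518). The first of these was -0.20 in libraries of like marker level, with 1 starved library. With the marker sum as a covariate it was -0.26 and did not pass, and the sums of these groups do not overlap. Starved against control passed in 15 of 24 alternatives. It also did not pass without control replicate 2 (-0.39), starved replicate 2 (-0.35) or starved replicate 3 (-0.53). The same held for limma at either pseudocount (-0.39 each), only the 6 libraries compared (-0.53) and a minimum change of 1.2-fold (-0.50). Re-added against control was -0.16 with the covariate, where the sums of these groups do not overlap and the value rests on the fitted slope. Rap against starved was 0.01 (SE 0.14, edgeR adjusted p = 0.959) and turned negative in some alternatives. With the covariate it passed at 0.34 (edgeR adjusted p = 0.0303), where the sums of these groups do not overlap either. In libraries of like marker level, with 1 starved library, it was 0.39.

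**Figure D3:**
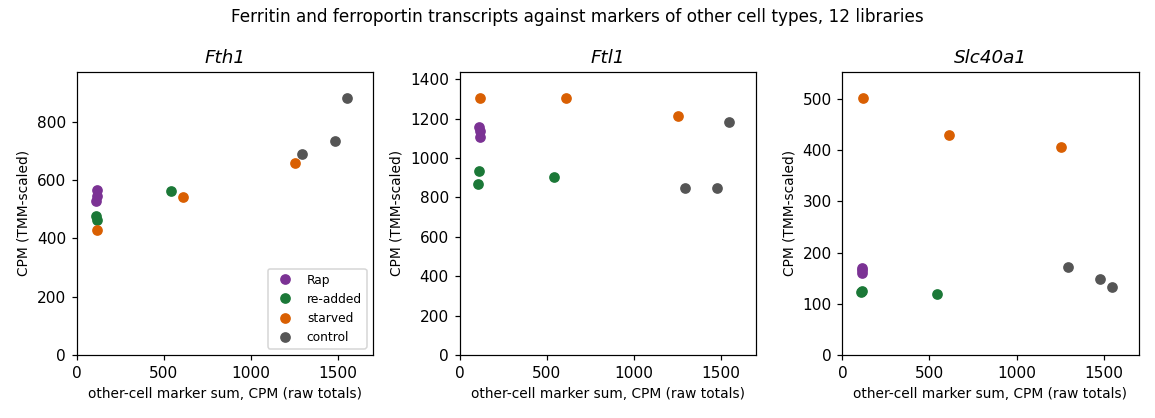
CPM of Fth1, Ftl1 and Slc40a1 (vertical, from 0) against the summed CPM of 34 fibroblast, leukocyte and endothelial marker rows (horizontal) in 12 libraries. Fth1 is highest in control libraries, where the sum is 1295 CPM or more, and follows the sum inside the starved group, whereas Slc40a1 is highest in the starved library with the lowest sum.

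The ratio of the subunits followed from these values. Fth1 over Ftl1 in TPM was 0.747 ± 0.0339 in Rap, 0.862 ± 0.098 in re-added, 0.662 ± 0.166 in starved and 1.25 ± 0.094 in control cells (SD, n = 3), with the control libraries above all others. The ratio followed the other-cell marker sums inside the starved group (0.838, 0.509 and 0.640), and re-added replicate 1, with the highest sum of its group, had the highest re-added ratio, 0.964. The summed ferritin level was 3917 ± 149, 3567 ± 196, 4592 ± 618 and 4237 ± 364 TPM in the same order, and starved and control libraries overlapped. Both genes have processed copies. The most abundant of those listed, Ftl1-ps1, had at most 91 reads in a library against 17603 or more for Ftl1, and how the authors counted reads that fit several copies is not given in the sources used here.

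The 2 sensors of iron varied little between groups. Aco1 encodes iron-regulatory protein 1, which acts as cytosolic aconitase when it carries an iron-sulphur cluster, and Ireb2 encodes iron-regulatory protein 2, which is degraded when iron is plentiful. Aco1 ranged from 72.3 to 75.1 CPM in Rap, from 83.3 to 90.2 CPM in re-added, from 79.9 to 92.9 CPM in starved and from 66.9 to 89.1 CPM in control libraries, and passed in none of the 5 comparisons (edgeR adjusted p from 0.0895 to 0.895). Its Rap and starved libraries did not overlap, and Rap against starved passed in 6 of 24 alternatives, among them without control replicate 2 or 3 (-0.22 each). Rap against re-added passed with only its 6 libraries (-0.26), and starved and re-added each passed against control without control replicate 3 (0.27 and 0.29). Ireb2 ranged from 73.2 to 78.5 CPM in Rap, from 76.1 to 81.0 CPM in re-added, from 89.3 to 107 CPM in starved and from 64.9 to 91.7 CPM in control libraries. It fell in Rap against starved cells by 0.32 on the log2 scale (SE 0.11, adjusted p = 0.0377), a call that 10 of 24 alternatives lost, among them those without any 1 Rap replicate, starved replicate 1 or 2, or re-added replicate 2 or 3, and the replicate block. The other comparisons of Ireb2 did not pass, with starved against control at 0.26 (adjusted p = 0.085) and re-added against starved at -0.28 (adjusted p = 0.0668). The first passed without control replicate 1 (0.38) and the second without control replicate 1 or 2 (-0.28 each).

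**Figure D4:**
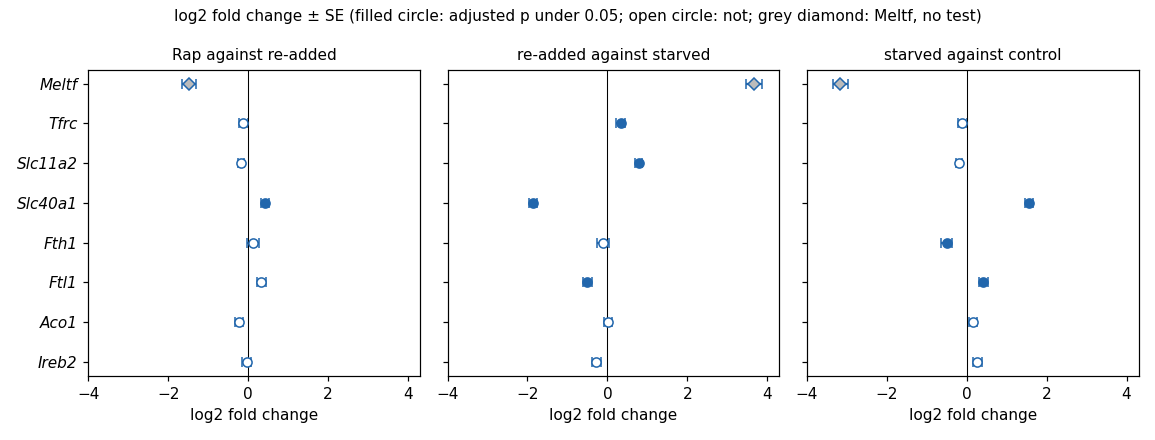
The log2 fold change of each gene, with its SE, in the 3 main comparisons. Filled circles have an edgeR adjusted p under 0.05, open circles do not, and the grey diamond marks Meltf, which has no test. Slc40a1 lies at 0.43, -1.86 and 1.56 from left to right.

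Counted together, 1 of the 7 tested members rose and 0 fell in Rap against re-added, where 7.98% of 16844 genes passed, 4.55% higher and 3.43% lower. In re-added against starved 2 rose (Slc11a2 and Tfrc) and 2 fell (Slc40a1 and Ftl1), where 37.3% of genes passed, 18.4% higher and 18.8% lower. In starved against control 2 rose (Slc40a1 and Ftl1) and 1 fell (Fth1), where 38.9% passed, 24.3% higher and 14.6% lower. In Rap against starved 1 rose (Slc11a2) and 2 fell (Slc40a1 and Ireb2), where 44.1% of genes passed, 20.2% higher and 23.9% lower. In re-added against control 1 rose (Slc11a2) and 2 fell (Slc40a1 and Fth1), where 49.3% passed, 24.8% higher and 24.5% lower. With 7 genes and such a background nothing is read from the number of calls.

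Groups did not overlap for 5 of the 7 in Rap against re-added (38.9% of all tested genes), 5 in re-added against starved (50.6%), 4 in starved against control (50.1%), 5 in Rap against starved (53.1%) and 3 in re-added against control (59.5%). Over all genes the balance of directions moved with the scaling. Starved against control had 4101 genes higher and 2458 lower, but 2961 higher and 3679 lower with upper-quartile factors, which moved the median log2 fold change of all genes to -0.13, against 0.01 with TMM. Rap against re-added had 766 higher and 578 lower, but 801 higher and 1037 lower with raw library totals. The directions of the called members were the same under each of these scalings.

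The wider iron lists, which hold 87 genes besides the members, had 80 tested genes. In starved against control 15 rose and 22 fell, where 24.3% of all genes were higher and 14.6% lower (median log2 fold change -0.19, all tested genes 0.01). In re-added against starved 21 rose and 10 fell, where 18.4% were higher and 18.8% lower (median -0.03, all tested genes -0.06), and in Rap against re-added 2 rose and 5 fell, where 4.55% were higher and 3.43% lower (median -0.06, all tested genes 0.00042). In libraries of like marker level, with 1 starved library, starved against control gave 5 rises and 17 falls, and re-added against starved 15 rises and 5 falls, where 18.1% and 20.1% of all genes passed. The same shares of all genes are the background to the counts of each list below.

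Of 17 genes of uptake, reduction and the transferrin cycle, 1 rose and 3 fell in starved against control. Slc39a8, a transporter of zinc, manganese and iron that is not bound to transferrin, fell furthest, to 57.8 ± 2.02 CPM in starved against 223 ± 20.99 CPM in control cells (log2 fold change -1.95, SE 0.07, edgeR adjusted p = 1.2e-08). It was 48.3 ± 0.729 CPM in Rap against 78.0 ± 0.822 CPM in re-added cells, a fall of 0.69 on the log2 scale (SE 0.07, adjusted p = 0.00016). On re-addition 4 of the 17 rose and 1 fell. Exoc6, an exocyst subunit needed for transferrin recycling in mouse red cell precursors, rose to 41.8 ± 2.6 CPM in re-added against 22.8 ± 2.89 CPM in starved cells (adjusted p = 3.8e-05).

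Of 6 tested genes of export, ferroxidases and hepcidin control, 1 rose and 1 fell in starved against control, and 1 rose on re-addition. Abcg2, a membrane pump that also carries porphyrins, rose to 6.25 ± 0.641 CPM in re-added against 2.21 ± 0.531 CPM in starved cells (log2 fold change 1.499, SE 0.20, edgeR adjusted p = 0.000135), which was 0.84 by limma on log2(TPM + 1). Of 7 storage and sensor genes, 1 rose and 2 fell in starved against control. The riser was Herc2, a ubiquitin ligase that targets the ferritin receptor NCOA4, at 84.1 ± 9.43 CPM in starved against 55.5 ± 15.1 CPM in control cells (adjusted p = 0.0235), a call lost in 7 of 24 alternatives, among them without control replicate 2 (0.40) or starved replicate 2 (0.53) or 3 (0.52).

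Mitochondrial iron and iron-sulphur genes went both ways. Of 29, 6 rose and 10 fell in starved against control, and 10 rose and 6 fell in re-added against starved. Hspa9, the mitochondrial chaperone that helps pass clusters on, rose to 437 ± 44.3 CPM in starved against 248 ± 9.32 CPM in control cells (log2 fold change 0.82, edgeR adjusted p = 2.9e-05), and fell to 236 ± 17.2 CPM in Rap against 367 ± 16.9 CPM in re-added cells (adjusted p = 0.000862). Glrx5, a glutaredoxin that carries clusters, fell to 42.2 ± 17.6 CPM in starved against 76.1 ± 10.4 CPM in control cells (adjusted p = 0.00849), a log2 fold change of -0.85 that was -1.29 without starved replicate 3 and -1.33 at like marker level. It did not pass with only the 6 libraries compared. On re-addition Bola3, a cluster assembly factor, rose to 74.5 ± 3.71 CPM in re-added against 41.0 ± 4.55 CPM in starved cells (adjusted p = 9.5e-05). Nfs1, the cysteine desulphurase that supplies the sulphur, fell to 29.4 ± 0.581 CPM in re-added against 48.9 ± 5.28 CPM in starved cells (adjusted p = 8.1e-05), and Iba57, a late assembly factor, fell to 8.92 ± 0.698 CPM in re-added against 14.8 ± 2.48 CPM in starved cells (adjusted p = 0.00376).

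Of 17 heme genes 4 rose and 6 fell in starved against control, and 4 rose and 1 fell on re-addition. The gene that fell on re-addition was Hmox1, heme oxygenase 1, which frees iron from heme. It stood at 10.6 ± 0.955 CPM in Rap, 16.1 ± 1.9 CPM in re-added, 34.7 ± 1.19 CPM in starved and 25.7 ± 3.5 CPM in control cells, with a log2 fold change of -1.10 for re-added against starved (SE 0.12, edgeR adjusted p = 2.4e-05) and of -0.61 for Rap against re-added (SE 0.12, adjusted p = 0.00936). The second call was lost without Rap replicate 1 (-0.57) or 2 (-0.58). Slc40a1 and Hmox1 were thus both highest in starved cells, and with Rap Slc40a1 was higher and Hmox1 lower than in re-added cells. Blvrb, a biliverdin reductase, fell to 11.4 ± 0.429 CPM in starved against 21.1 ± 3.25 CPM in control cells (adjusted p = 0.000131). Pgrmc1, a heme-binding membrane protein, rose to 446 ± 25.9 CPM in Rap against 340 ± 4.44 CPM in re-added cells (adjusted p = 0.0134), a call lost without re-added replicate 2 or 3 or Rap replicate 2 or 3 (0.35 to 0.40). Of 4 other genes with a described iron-responsive element, 2 rose in starved against control, among them Cdc14a, a phosphatase, at 10.03 ± 0.531 CPM in starved against 6.58 ± 0.446 CPM in control cells (adjusted p = 0.00602), and it rose with Rap to 14.6 ± 1.79 CPM against 10.2 ± 1.71 CPM in re-added cells (adjusted p = 0.0458). The Rap call of Cdc14a was lost in 16 of 24 alternatives, among them without any 1 Rap or starved replicate, re-added replicate 2 or 3, or control replicate 1 (0.40 to 0.60).

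The genes most like Meltf over the 12 libraries were not in the iron lists. By Pearson correlation of log2 CPM among 13151 genes, the 6 highest included Hmgcs1 (r = 0.98), Ppa1 (0.98), Tmem229b (0.98) and Grhl3 (0.97). The 12 points fall into 4 groups that share treatments, so r is a description of group differences. Hmgcs1 encodes an enzyme of the mevalonate pathway, Ppa1 the cytosolic pyrophosphatase and Grhl3 a grainyhead-like transcription factor. Hmgcs1 stood at 71.4 ± 3.67 CPM in Rap, 114 ± 5.4 CPM in re-added, 44.3 ± 1.15 CPM in starved and 88.3 ± 1.91 CPM in control cells, the same order of groups as Meltf over a narrower range. The genes most like Tfrc were Nup93 (r = 0.95), a nuclear pore protein gene, Xpo1 (0.94), the nuclear export receptor, and Orc3 (0.94), of the origin recognition complex. The ranks depended on single libraries and on the scaling. Over 15 alternatives Hmgcs1 stayed within rank 4, Ppa1 within 5 and Tmem229b within 7, whereas Grhl3 ran from 5 to 20 (20 with TPM, 14 without control replicate 2). For Tfrc the ranks ran from 1 to 5 for Nup93, 1 to 22 for Xpo1 and 2 to 19 for Orc3, the last 2 being 21 and 19 without control replicate 1, 22 and 13 without control replicate 2, and 12 and 14 without starved replicate 2.

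The genes around Meltf were called in both directions. Of 15 other tested genes within 500 kb, 5 rose and 2 fell in starved against control (38.9% of all tested genes called), with log2 fold changes from -1.07 to 0.65. On re-addition 2 rose and 4 fell (37.3% of all genes called), from -0.62 to 1.41, and with Rap against re-added 1 rose and 0 fell (7.98%), from -0.14 to 0.54. Its nearest tested neighbour downstream, Pigz, a mannosyltransferase of GPI anchor synthesis, had the end values of the first 2 ranges, -1.07 and 1.41, at a level of 0.451 CPM in starved cells.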

How the data were processed

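Deposited for each library are raw counts of reads per gene, made by the authors, and a joint table of TPM values with gene names. Per the file headers each count row carries an Ensembl gene ID, exon positions and a length. The submitters' processing notes name GRCm38.p6, Subread 2.0.1 and limma 3.46.0 without saying what each did. The aligner, the strand setting and the annotation release were not given in the sources used here, so reads of overlapping or antisense genes cannot be told apart. TPM recomputed from counts and lengths matched the authors' TPM within 5e-05. No column was left without a sample.

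Genes were tested with edgeR 4.0.16 in R 4.3.3: filterByExpr (minimum count 10, total 15) kept 16844 genes, followed by TMM and 1 quasi-likelihood fit of the 4 group means with 8 residual degrees of freedom. P-values were adjusted by Benjamini-Hochberg over all tested genes, with a threshold of 0.05. CPM are TMM-scaled, except marker sums and levels of single markers, which use raw totals. The SE is the log2 fold change over the root of F. Libraries held 18555958 to 25631056 reads, so 5 CPM stand for 92.8 to 128 reads. Alternatives used other scalings, DESeq2 1.42.0, limma 3.58.1 on log2(TPM + 1) and log2(TPM + 0.1) with TPM of at least 1, a block, a marker covariate and fewer libraries. The routines were tested on simulated data.

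The members, lists and tests were chosen with earlier results of these data known. The text names the members, then in each main comparison at most 3 rising and 3 falling called genes of the iron lists, those with the largest change at 5 CPM or more and no overlap between groups. It also names genes from the 6 most like Meltf, of which some are not reported here, the 3 most like Tfrc, and neighbours of Meltf. Of 157 list genes, 6 were matched through RefSeq synonyms.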

Additional observations from a re-analysis of the deposited data

How the results depend on the processing

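Slc40a1 in starved against control (1.41 to 1.68), re-added against starved (-1.96 to -1.79) and Rap against starved (-1.56 to -1.37), and Slc11a2 in the 3 comparisons where it rose, passed in every alternative run. Of the 7 tested members, starved against control called 1 with only the 6 libraries compared (25.5% of all genes) and 1 with a minimum change of 1.2-fold (21.9%), and re-added against starved 2 in libraries of like marker level (20.1%). Rap against re-added called 2 with raw totals (10.9%) and 2 with DESeq2 (13.7%), 0 with limma on log2(TPM + 0.1) (11.4%), 0 with the minimum change (2.07%), 0 at like marker level (6.04%) and 5 with only its 6 libraries (26.1%, against 7.98% with all 12). Rap against starved called 5 with limma at either pseudocount (37.5% and 37.6%) and 6 with only its 6 libraries (53.0%). Leaving out 1 library gave 0 to 2 members in Rap against re-added, 3 to 5 in re-added against starved, 2 to 4 in starved against control, 2 to 5 in Rap against starved and 2 to 4 in re-added against control. For the wider iron lists the same left-out libraries gave 2 to 9, 25 to 35, 32 to 43, 23 to 43 and 32 to 53 calls in that order. The shares of all genes just given are the background to these too. The minimum change gave 2, 17, 21, 19 and 29 calls in that order, where 2.07%, 21.5%, 21.9%, 26.3% and 30.6% of all genes passed. Like marker level gave 20 in re-added against starved, 22 in starved against control and 17 in Rap against starved. Rap against re-added had 11 with DESeq2 (13.7% of all genes), 12 with limma at either pseudocount (11.6% and 11.4%) and 16 with only its 6 libraries (26.1%). Re-added against control had 16 with the marker covariate, where 15.8% of all genes passed against 49.3% in the main fit. Re-added against control was not run at like marker level. The reversed differences below passed neither as reported nor after the reversal. With limma at 1 and 0.1, Tfrc was 0.01917 and 0.01937 in starved against control, Fth1 -0.09478 and -0.09482 in Rap against starved, Ftl1 0.02697 and 0.02699 in re-added against control, Aco1 -0.003348 and -0.003418 in re-added against starved, and Ireb2 0.08938 and 0.09404 in re-added against control. With the marker covariate Tfrc was -0.003897 in re-added against control, and in re-added against starved Fth1 was 0.09663 and Aco1 -0.01182. At like marker level these were 0.1885 and -0.07641. Fth1 in Rap against starved was -0.05758 with raw totals, -0.01984 unfiltered, -0.01362 with only its 6 libraries, and -0.1818 to 0.1829 without 1 library (below 0 without starved replicate 2 or 3, re-added replicate 1 or Rap replicate 1). Leaving out 1 library gave Tfrc -0.2283 to 0.02021 in starved against control, Fth1 -0.2748 to 0.08916 and Aco1 -0.001463 to 0.06364 in re-added against starved, and Ftl1 -0.1722 to 0.08743 and Ireb2 -0.1481 to 0.09378 in re-added against control. The cause was not tested. Same-numbered libraries did not all deviate together (r of -0.26, -0.21 and 0.05 in starved against control, and of 0.84, 0.71 and -0.31 in re-added against starved). For differently numbered libraries r ran from -0.85 to 0.68 in re-added against starved. With 3 libraries a group this check cannot settle whether the numbers pair them. With the replicate block 1, 3, 3, 2 and 3 members passed, in the order given for the left-out libraries. In the same order 6.33%, 35.4%, 38.7%, 41.1% and 48.1% of all genes passed. Tfrc in re-added against starved (0.34) and Ireb2 in Rap against starved (-0.32) did not pass with the block. The starved level of Meltf rests on 14 to 26 reads a library.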
